A study of Mus musculus with 4 samples.

Results

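The genes of the PGC-1 coactivators were followed in lamina-associated chromatin of primary mouse hepatocytes. The members were taken by their symbols in the mm9 annotation, which gave 3 genes, *Ppargc1a*, *Ppargc1b* and *Pprc1*, of the 22367 protein-coding genes on chromosomes 1 to 19, X and Y. All 3 symbols were found. Hepatocytes came from WT mice and from *Tm7sf2*/NET47 KO mice (KO), both on a C57BL/6 background and aged 12 to 16 weeks, and received for 24 h lentivirus that carried either Dam-LaminB1 or unfused Dam, called Dam only. Both genotypes were kept in the same serum-free medium with insulin, dexamethasone and EGF. The deletion is in the whole animal, and only a minority of the cells took up the virus. The 4 libraries, 1 of each construct in each genotype, were each made from the pooled DNA of 4 mice, so no error between animals and no test between the genotypes can be given.

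DamID marks DNA that touches the nuclear lamina, since lamin B1 carries a Dam methylase to the nuclear edge, where it adds a methyl group to the adenine of nearby GATC sites. The authors divided the Dam-LaminB1 reads by the Dam only reads, and cut the resulting profile into lamina-associated domains (LADs). Stretches of at least 10 kb in a LAD of one genotype and outside those of the other are differential regions (DRs). A gene is called PI (periphery to interior) where 1 base or more of its span is in a WT-only DR, and IP where this holds for a KO-only DR. AMB genes overlap both kinds. Genes without a DR are PP if LADs of both genotypes lie on them and II otherwise. The lists hold positions only, so a LAD is either present or not, and how strongly a gene touches the lamina cannot be read from them. The KO was sequenced less deeply than the WT, and depth and genotype cannot be told apart in the lists. There were 8107 WT LADs and 16076 KO LADs, and they covered 55.4% and 56.1% of the genome. None of the lists measures RNA, so the labelled cell type could not be checked against marker genes.

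PGC-1 coactivators do not bind DNA themselves. They are recruited by transcription factors, among them the nuclear receptors, and raise the transcription of genes of mitochondrial biogenesis and energy metabolism. *Ppargc1a* encodes PGC-1alpha, which is induced in the fasted liver through cAMP and CREB and drives gluconeogenesis and fatty acid oxidation. *Ppargc1b* encodes PGC-1beta, which in the liver also coactivates SREBP-1 and with it lipid synthesis. *Pprc1* encodes the PGC-1-related coactivator PRC, which is expressed in most tissues and responds to growth signals.

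*Ppargc1a* has 2 groups of annotated starts 13.8 kb apart, and they differed in their place relative to the LADs. The 250 bases before each start are shown because the upstream start lay in a WT-only DR and the main start in no LAD. The PI call of the gene does not depend on this, since other WT-only DRs lay within the main transcript. They are given 5′ to 3′ on the minus strand from the NCBIM37 genome (the same assembly as mm9), for the main start at chr5:51945161-51945410 and for the upstream start at chr5:51958965-51959214. Capitals mark GATC, the site that Dam methylates, and TGACG on either strand, the core of the CREB binding site.
main start: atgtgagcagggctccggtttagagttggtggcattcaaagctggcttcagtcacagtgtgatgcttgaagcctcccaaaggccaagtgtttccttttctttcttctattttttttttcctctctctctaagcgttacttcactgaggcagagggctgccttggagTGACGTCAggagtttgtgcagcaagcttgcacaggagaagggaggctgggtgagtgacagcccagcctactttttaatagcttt
upstream start: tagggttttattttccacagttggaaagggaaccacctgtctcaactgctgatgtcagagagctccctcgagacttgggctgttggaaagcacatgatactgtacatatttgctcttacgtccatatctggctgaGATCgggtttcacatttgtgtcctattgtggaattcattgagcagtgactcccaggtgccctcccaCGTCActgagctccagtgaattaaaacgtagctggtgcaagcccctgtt

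The window of the main start held 1 full palindrome TGACGTCA and no GATC, and that of the upstream start held 1 GATC, no TGACGTCA and 1 match to TGACG on either strand. The palindrome contains TGACG on both strands. Of 22362 windows of the same length before the main start of a protein-coding gene, 1.97% held TGACGTCA, 19.7% held TGACG on either strand and 39.6% held GATC. These are matches of letters and not measured binding sites. RefSeq, whose promoter table is on GRCm38.p6, lists the upstream start of *Ppargc1a*, and its sequence matched NCBIM37 without a difference and gave the same start at 51958964. Its promoter of *Pprc1* matched in the same way and gave the main start at 46131029.

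*Ppargc1a* lies on the minus strand of chromosome 5 from 51845488 to 51958964, a span of 113 kb in which the main transcript has 13 exons. It was called PI, and it was the only member with a LAD of either genotype on it, where 44% of all protein-coding genes had one. In WT, 62.0% of the span (70.3 kb) was in 3 LADs. In KO, 28.1% (31.9 kb) was in 2 LADs. Over all protein-coding genes 5.43% were PI, and among the 3540 genes with 0.5 to 2 times the span of *Ppargc1a* (the gene included) it was 8.45%. Of the genes of chromosome 5, 6.42% were PI. The call rested on the span and on DRs under 50 kb, and the gene was PP with DRs of at least 50 kb or when at least 50% of the span had to be in DRs, and II by its main start alone.

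The loss was in 3 separate pieces. WT-only DRs covered 42.2% of the span, or 47.9 kb. One of 22.4 kb, from 51849780 to 51872177, lay over the 3′ part of the gene, one of 16.3 kb, from 51899931 to 51916203, lay within intron 2, and one of 40.4 kb, from 51949706 to 51990132, reached 9.26 kb into the span from its 5′ side. These DRs held 50, 36 and 90 GATC sites. At least 3 WT-only DRs were found on 9.30% of the 1215 PI genes, and the median PI gene had 1. These PI genes were not matched to *Ppargc1a* for length. The DR of 40.4 kb lies upstream of the main start, so it counts only through the span of the upstream transcripts. Over the PI genes the median share of DR bases was 34.9%, and 55.1% of them had a lower share than *Ppargc1a*.

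Not every part of the gene left the LADs. A stretch of 18.1 kb, from 51881851 to 51899930, and the last 4.29 kb of the gene, from 51845488 to 51849779, were in LADs of both genotypes, together 19.7% of the span. Of the PI genes, 61.6% likewise had WT LAD bases outside the WT-only DRs together with KO LAD bases, though these need not overlap. Between the downstream DR and the shared stretch, 9.53 kb from 51872326 to 51881850 was in a KO LAD only. It is shorter than the 10 kb asked of a DR and is therefore not in the deposited list, and with differences of any length counted *Ppargc1a* was AMB. The remaining 29.7% of the span was in no LAD of either genotype, nearly all of it in one stretch of 33.5 kb.

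**Figure D1:**
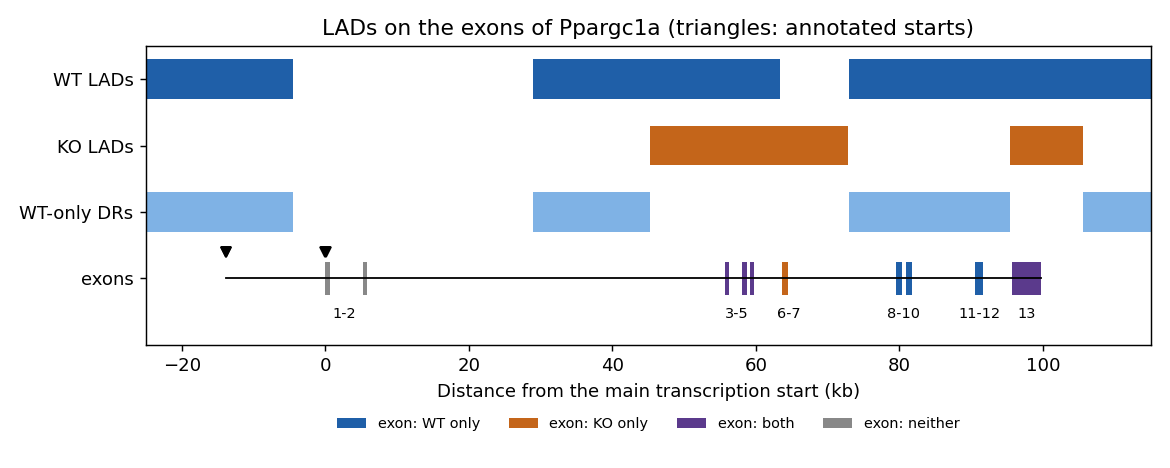
The plot shows the LADs and WT-only DRs over *Ppargc1a* by distance in kb from its main transcription start, with the exons of the main transcript colored by the LADs they lie in and triangles at the annotated starts (exons under 0.6 kb are drawn wider than scale). Exons 8 to 12 are in WT LADs only, exons 6 and 7 in a KO LAD only, exons 3 to 5 and 13 in both, and exons 1 and 2 in neither.

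The borders of these LADs fell at GATC sites, where the method can place them. A GATC lay within 4 bases of all 7 borders inside the gene span, and of 99.2% of all WT and 99.6% of all KO borders. The sites are shown because they bound the pieces of *Ppargc1a* that differed between the genotypes. Each is given on the plus strand of NCBIM37 with the border's GATC in capitals and 20 bases on either side.
KO LAD end in intron 12, chr5:51849757-51849800: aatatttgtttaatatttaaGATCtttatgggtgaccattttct
WT LAD end in intron 7, chr5:51872155-51872198: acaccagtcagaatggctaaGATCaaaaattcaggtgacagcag
KO LAD start in intron 7, chr5:51872303-51872346: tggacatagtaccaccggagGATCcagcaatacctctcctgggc
WT LAD start in intron 5, chr5:51881828-51881871: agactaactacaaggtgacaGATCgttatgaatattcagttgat
KO LAD end in intron 2, chr5:51899908-51899951: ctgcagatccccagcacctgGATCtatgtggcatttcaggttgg
WT LAD end in intron 2, chr5:51916181-51916224: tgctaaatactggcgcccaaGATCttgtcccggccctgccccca
WT LAD start before the main start, chr5:51949683-51949726: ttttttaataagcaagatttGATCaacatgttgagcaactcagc

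None of these borders fell in an exon. Within intron 7 a WT LAD ended at 51872177 and a KO LAD began at 51872326, leaving 0.148 kb between them in no LAD. On one side of this point the gene was in a WT LAD without a KO LAD, and on the other side in a KO LAD without a WT LAD.

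The exons were then placed one by one. Exons 8 to 12, from 51853945 to 51865650, were in a WT LAD and in no KO LAD. They hold 1416 of the 2391 coding bases (59.2%), including the longest coding exon, exon 8 with 916 bases, and encode codons 292 to 764 of 797. This part of PGC-1alpha includes the arginine/serine-rich region and the RNA recognition motif, through which the protein meets the RNA processing machinery. Exons 6 and 7, with 120 coding bases, were in a KO LAD only. Exons 3 to 5 were in LADs of both genotypes, as was exon 13, which carries the last 101 coding bases and most of the 3′ untranslated region. Exons 1 and 2, which encode codons 1 to 76 at the N-terminal activation domain, were in no LAD of either genotype. Each exon lay wholly on one side of every border, so asking for the whole exon in the LAD gave the same 5 and 2 exons.

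Neither genotype had a LAD at the main transcription start of *Ppargc1a*, at 51945160. The nearest LAD was 4.55 kb away in WT, on the upstream side, and 45.0 kb away in KO. The stretch without LADs that holds this start was 33.5 kb long in WT and 90.2 kb in KO, and it was longer in KO on both sides. Of the PI genes, 19.8% likewise had their main start in no LAD of either genotype, and 39.2% had it in a WT-only DR. Over all protein-coding genes the median distance to the nearest LAD was 114 kb in WT and 25.9 kb in KO. The main start of *Ppargc1a* was nearer than that median in WT and farther in KO. Among the genes of chromosome 5 the medians were 197 kb and 48.2 kb, and it was nearer than both.

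The upstream start was placed differently. Its 2 transcripts, *Ppargc1a*-003 and *Ppargc1a*-004, begin at 51958964 and 51958963, inside the WT LAD and in the WT-only DR of 40.4 kb, and 31.2 kb from the nearest KO LAD. Both are annotated as putative and incomplete at the 3′ end. Of all protein-coding genes, 2.3% had their main start in a WT-only DR. A later RefSeq model of the gene extends farther upstream, and starts beyond those of the mm9 annotation were not examined.

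*Ppargc1a* stood alone in its surroundings. No other protein-coding gene lay within 500 kb of it. The next one at lower coordinates was the predicted gene *Gm7205*, 1172 kb away, and the next at higher coordinates was *Dhx15*, an RNA helicase gene of the spliceosome, 582 kb away. *Gm7205* was in a WT LAD over its whole span and was PI with 4.49% in a WT-only DR. *Dhx15* had no LAD in either genotype.

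The 3 WT LADs on *Ppargc1a* fared unequally. The downstream one of 72.9 kb, from 51799252 to 51872177, had 14.0% of its bases in a KO LAD, and that in the middle, 34.4 kb from 51881851 to 51916203, had 52.6%. The upstream one of 508 kb, from 51949706 to 52457516, had 72.6% of its bases in 6 KO LADs and held 5 WT-only DRs with 131 kb in all. *Ppargc1a* was the only protein-coding gene on each of them. Over the whole genome, WT LADs covered 1472 Mb, of which 161 Mb was in WT-only DRs.

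LAD coverage was measured in windows centered on each gene. In the 200 kb around *Ppargc1a* it was 78.4% in WT and 24.9% in KO. In 1 Mb it was 92.3% and 71.5%, with 22.3% of the window in 9 WT-only DRs and 2.36% in 2 KO-only DRs. In 2 Mb it was 78.6% in WT and 78.0% in KO, with 11.1% of the window in WT-only and 11.1% in KO-only DRs. Of the 10 KO-only DRs in 2 Mb, only 2 lay within the inner 1 Mb, and all 9 WT-only DRs did. Over the whole genome, LADs covered 55.4% in WT and 56.1% in KO, with 6.05% in WT-only and 7.16% in KO-only DRs.

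**Figure D2:**
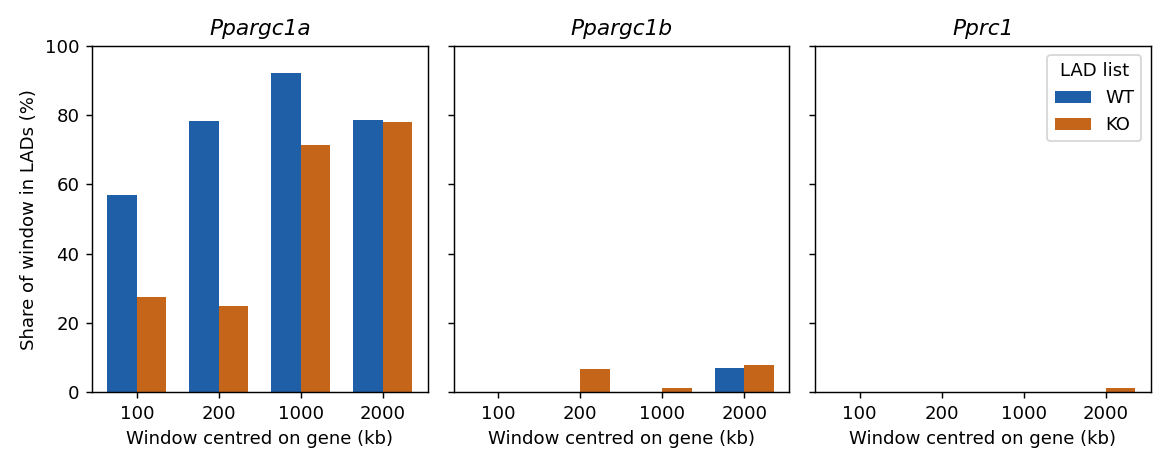
The bars show the percentage of each window in LADs, for windows of 100 to 2000 kb centered on each gene, in WT and KO (1 LAD list per genotype, so without error bars). The difference at *Ppargc1a* is largest at 200 kb, with 78.4% in WT against 24.9% in KO, and *Ppargc1b* and *Pprc1* stay below 10% in every window.

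*Ppargc1b* had no LAD on it in either genotype, although it is nearly as long as *Ppargc1a*. It lies on the minus strand of chromosome 18 from 61457790 to 61560085. The 102 kb hold 12 exons, and the gene was called II. Of all protein-coding genes 56.6% were II, as were 43.7% of those with 0.5 to 2 times its span and 46.2% of those on chromosome 18. From its main start at 61560085, a WT LAD was reached only after 706 kb. In KO, a LAD of 13.6 kb, from 61562660 to 61576281, began 2.57 kb upstream of this start, and the whole of it was a KO-only DR with 40 GATC sites. The gene was therefore II by its span alone, and it was IP when 5 kb upstream of the start was counted with the span, a setting chosen after seeing the data. With that setting 18.8% of all protein-coding genes were IP, against 17.1% by the span. Of all protein-coding genes, 3.96% had no overlap with a KO-only DR but a main start within 10 kb of one, a distance that was also chosen after seeing the data. A main start nearer to a KO LAD than that of *Ppargc1b*, or inside one, was common. It was found in 35.3% of all protein-coding genes and in 41.6% of those on chromosome 18.

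This KO LAD was a small one in a stretch otherwise without LADs. Only LADs of at least 10 kb are in the lists, and with a minimum of 20 kb the nearest KO LAD was 604 kb away. In the 1 Mb centered on *Ppargc1b*, 0% was in WT LADs and 1.36% in KO LADs, all of it this LAD. The stretch without LADs that holds the main start was 1676 kb in WT, with 28 protein-coding genes, and 1057 kb in KO, with 21. All 18 neighbors within 500 kb of the gene were II, beside 46.2% of the genes of chromosome 18. Among them were *Pde6a*, which encodes a phosphodiesterase of the rod photoreceptor and lies 8.21 kb past the 3′ end, and *Arhgef37*, a guanine nucleotide exchange factor gene 93.4 kb upstream. The starts of the other *Ppargc1b* transcripts, at 61560054, lay 2.61 kb from the KO LAD.

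*Pprc1* was the member farthest from any LAD. It lies on the plus strand of chromosome 19 from 46119376 to 46147405, a span of 28.0 kb, and none of the 14 exons of its main transcript was in a LAD. It was II, as were 64.9% of the genes of like length and 73.1% of the genes of chromosome 19, where 14.9% were PI. Its main start at 46131029 was 1693 kb from the nearest WT LAD and 537 kb from the nearest KO LAD. Of all protein-coding genes, 93.8% had a start nearer to a WT LAD and 93.5% one nearer to a KO LAD. Among the genes of chromosome 19 these shares were 89.5% and 80.9%. The annotated transcript starts of *Pprc1*, which run from 46119376 to 46146244, were 1678 to 1705 kb from a WT LAD and 525 to 552 kb from a KO LAD.

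The stretch without LADs around *Pprc1* was 4363 kb long in WT, from 43461348 to 47824102, and held 86 protein-coding genes. In KO it was 2164 kb, with 45 genes. The nearest KO LAD, 13.5 kb from 45580582 to 45594089, was a KO-only DR, and with LADs of at least 20 kb the distance was 1413 kb. All 23 neighbors within 500 kb lay inside the stretches without LADs of both genotypes, and so were II, beside 73.1% of the genes of chromosome 19. *Ldb1*, which encodes a LIM domain binding protein, overlaps the upstream end of the *Pprc1* span by 329 bases, and *Nolc1*, which encodes a nucleolar phosphoprotein, begins 2.95 kb past its 3′ end. The nearest WT-only DR was 1947 kb from the gene.

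**Figure D3:**
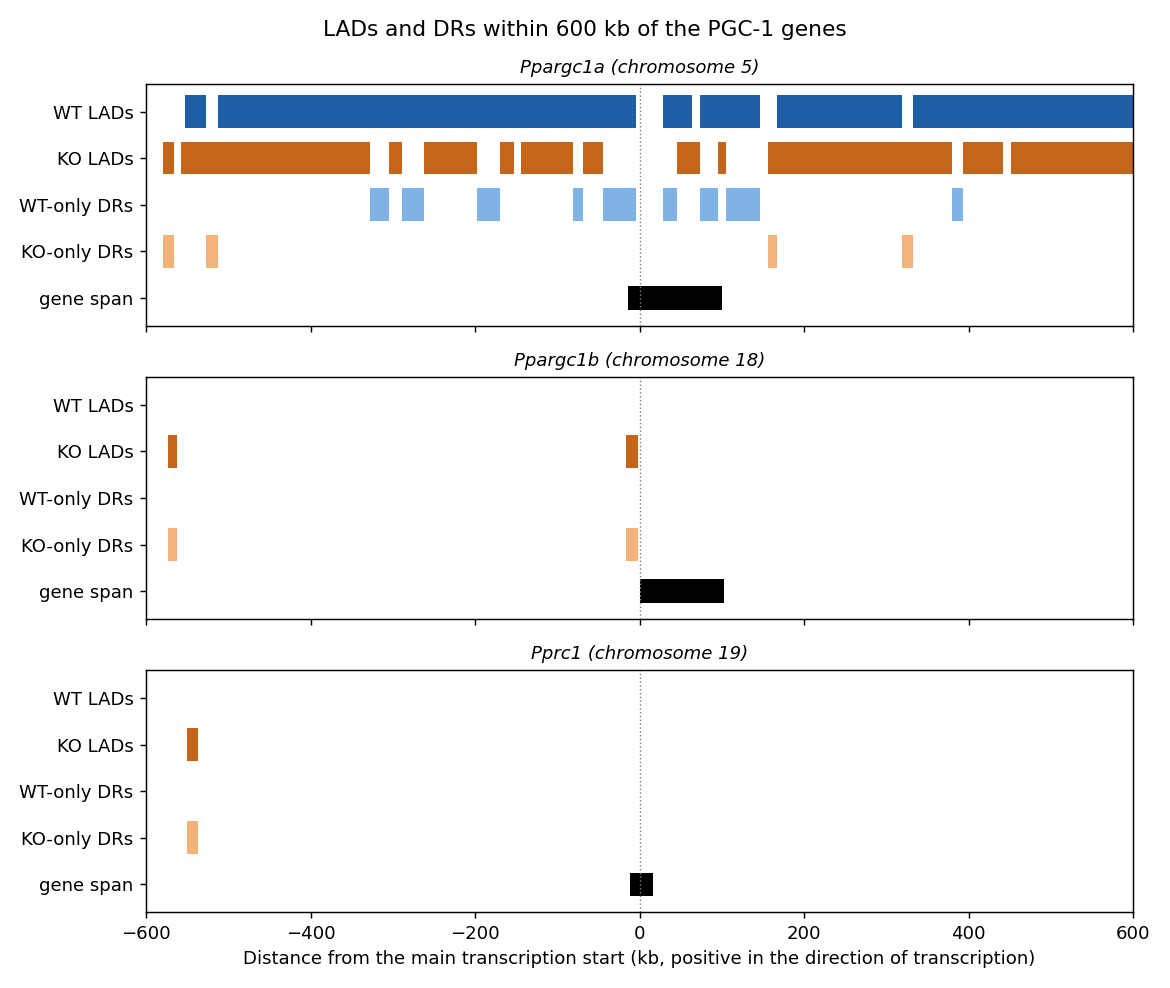
The tracks show WT LADs, KO LADs, WT-only DRs, KO-only DRs and the gene span within 600 kb of the main transcription start of each member (distance in kb, positive in the direction of transcription). LADs fill most of the *Ppargc1a* panel and break up in KO around the gene, and the *Ppargc1b* and *Pprc1* panels hold no WT LAD and only short KO LADs. Over the whole genome, too, LADs were more numerous in KO (16076 against 8107 in WT).

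Base composition moved with these places, and its part in the result was not tested. The span of *Ppargc1a* was 39.0% G and C, against 49.0% in *Ppargc1b* and 49.1% in *Pprc1*. Over 1 Mb the values were 40.0%, 47.9% and 46.8%. GATC sites were about as dense in the 3 surroundings, with 2388, 2491 and 2331 in 1 Mb.

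The genes most like *Ppargc1a* were sought among 3539 protein-coding genes with 0.5 to 2 times its span. Likeness was the Euclidean distance over 4 values in percent of the span, those in WT LADs, in KO LADs, in WT-only DRs and in KO-only DRs. The 5 nearest were *Zfp943* at a distance of 7.82, *Tgfbr3* at 7.84, *Clic5* at 8.48, *Fam188a* at 9.37 and *Trpm6* at 10.9. WT LADs covered 68.5% of *Zfp943* and KO LADs 30.1%, and for *Tgfbr3*, which is also on chromosome 5, these values were 64.9% and 22.4%. All but *Clic5*, which was AMB with 7.57% of its span in KO-only DRs, were PI. Likeness was measured on the DR shares themselves, so genes this near could only be PI or AMB. The main starts of *Zfp943*, *Tgfbr3*, *Fam188a* and *Trpm6* were in no LAD of either genotype, as that of *Ppargc1a*, and the start of *Clic5* was in a KO LAD. For *Ppargc1b*, 1661 of 3814 genes of like length (43.6%) had the same 4 values of 0, and for *Pprc1* 4755 of 7369 (64.5%) did, so no single gene could be named as most like them.

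The position of 99 further genes of the PGC-1 pathway was read from the same lists. They were 25 partner transcription factors, 19 upstream regulators, 11 cofactors, 19 target genes of fasting and the liver, and 25 mitochondrial targets. All 99 were found. Of them, 3 were PI, 9 IP, 3 AMB, 0 PP and 84 II. In percent, 3.03% were PI, 9.09% IP, 3.03% AMB, 0% PP and 84.8% II, beside 5.43%, 17.1%, 2.96%, 17.9% and 56.6% over all protein-coding genes. The median distance from the main start to a LAD was 352 kb in WT and 119 kb in KO for the listed genes, against 114 kb and 25.9 kb over all genes. The list was chosen by name and not matched for length or expression, and the median span was 23.7 kb against 15.4 kb over all genes.

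Among the partner transcription factors, the estrogen-related receptors carry much of the action of PGC-1alpha on mitochondrial genes, and their 3 genes were in 3 different classes. *Esrra* was II, with the nearest LADs 702 kb and 711 kb from its start in WT and KO. *Esrrb* was IP, in no WT LAD and with 12.2% of its span in a KO-only DR. *Esrrg*, 606 kb long, had 93.4% in WT LADs and 63.3% in KO LADs, with 30.2% in WT-only DRs and 0.309% in a KO-only DR, which made it AMB. The listed subunit genes of the nuclear respiratory factor GABP, *Gabpa* and *Gabpb1*, were IP. *Gabpa* had 72.1% of its span in a KO-only DR, its start included, and *Gabpb1* 26.1%. *Nrf1*, the other nuclear respiratory factor, was II. The PI genes of this group were *Rxrg*, a retinoid X receptor gene with 24.6% of its span in WT-only DRs, and *Mef2c*, a myocyte enhancer factor gene with 6.22%. WT LADs covered 42.0% of *Rxrg* and 100% of *Mef2c*, and KO LADs 31.4% and 93.8%. *Thrb*, a thyroid hormone receptor gene, was IP with 4.57% in KO-only DRs. The genes of the partners best known in hepatocytes, *Ppara*, *Hnf4a* and *Foxo1*, were II. So were 18 of the 25 partner transcription factors (72%) and 56.6% of all protein-coding genes.

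Of the upstream regulators, *Creb1*, whose product binds the cAMP response element, was IP, in no WT LAD and with 79.8% of its span in KO LADs. Its start was outside, 4.25 kb from the KO LAD. *Sirt1*, the deacetylase that activates PGC-1alpha, had 24.1% in a KO-only DR, and *Ppp3ca*, a calcineurin catalytic subunit gene, 12.02%. *Camk4*, a calcium-dependent kinase gene, was AMB with 15.98% in WT-only and 13.1% in KO-only DRs, and its start was in a KO-only DR. The other 15 of this group (78.9%) were II, beside 56.6% of all protein-coding genes. Among the cofactors only the coactivator gene *Ncoa1* had a DR, and it was AMB with 16.2% in WT-only and 9.22% in KO-only DRs. The other 10 cofactors (90.9%) were II, beside the same 56.6%. Over all protein-coding genes 5.43% were PI, 17.1% IP and 2.96% AMB.

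All 19 genes of the fasting and liver targets were II, beside 56.6% of all protein-coding genes. They were short, with a median span of 9.37 kb against 15.4 kb over all genes, and the part of length in this count was not tested. They include *Pck1* and *G6pc*, the genes of the gluconeogenic enzymes, whose starts were 197 kb and 1127 kb from a WT LAD and 151 kb and 565 kb from a KO LAD. The study called *Irs2*, another of the 19, IP, with a LAD gained near its first exon in KO. By the lists used here *Irs2* was II, and its start was 93.95 kb from a WT LAD and 127 kb from a KO LAD. The II gene of the list closest to a LAD was *Cyp7a1*, the rate-limiting enzyme of bile acid synthesis, with its start 0.456 kb from a WT LAD and 23.5 kb from a KO LAD. It was followed by *Atf2*, a CREB family factor, at 2.44 kb, and *Fbxw7*, a ubiquitin ligase subunit, at 2.92 kb, both from a KO LAD.

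Of the 25 mitochondrial targets, 22 (88%) were II, beside 56.6% of all protein-coding genes. Among these 22 was *Tfam*, the transcription factor of the mitochondrial genome. *Ndufb5*, a subunit of respiratory complex I, was PI, with a WT-only DR over 70.1% of the gene and no KO LAD. *Ucp1*, the uncoupling protein of brown fat, lay wholly in a KO LAD and in no WT LAD. *Atp5o*, an ATP synthase subunit gene, was IP with 4.35% of a span that the annotation draws as 247 kb. None of the 99 starts was in a WT-only DR, where 2.3% of all main starts lay. KO-only DRs held 3 of them (*Gabpa*, *Camk4* and *Ucp1*), or 3.03%, beside 11.8% of all main starts.

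**Figure D4:**
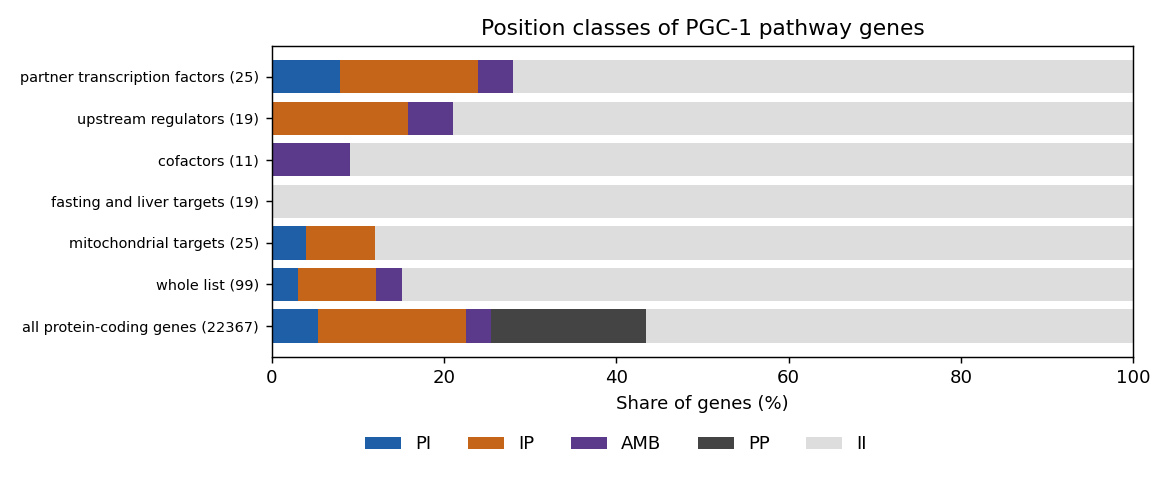
The stacked bars show the percentage of genes in each position class for the groups of the PGC-1 pathway list, the whole list and all protein-coding genes (number of genes in brackets). The whole list is 84.8% II against 56.6% of all genes, and holds no PP gene.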

How the data were processed

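DamID was deposited as 2 lists of LADs and 2 lists of DRs, in BED format with 4 columns and no header. The deposited positions carry no signal or score. Per the labels and the study's methods, the authors mapped reads to mm9 (BWA is named without a version), formed a log2 ratio of the Dam-LaminB1 signal over that of Dam only in each *DpnI* fragment, segmented it with DNAcopy at its default settings, and subtracted the LAD lists from each other. Repeating the subtraction with a minimum of 10 kb returned each of the 7787 WT-only DRs and 8208 KO-only DRs.

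Genes were those of the GENCODE vM1 annotation on NCBIM37, and no LAD ran past a chromosome end. The main transcript was the protein-coding one with the most exonic bases. Overlaps, distances and coverage were computed with Python 3.11.15 and numpy 2.4.6, tested on simulated data, and drawn with matplotlib 3.10.9. Positions are 1-based. The named genes were all members, every pathway gene that was not II with the 3 II genes nearest to a LAD (*Esrra*, *Nrf1*, *Ppara*, *Hnf4a*, *Foxo1*, *Pck1*, *G6pc*, *Irs2* and *Tfam* were added for their role after the values were seen), the 5 genes most like a member, and the neighbors next to a member. The members, lists and settings were chosen with earlier results of these data known. The depth per library is not in the lists, and with 1 library pair per genotype no test was made.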

Additional observations from a re-analysis of the deposited data

How the results depend on the processing

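With 1 pooled library pair per genotype there is no replicate to leave out. No paired analysis was possible because each group has 1 library and no test was made. A value was counted as unchanged when it stayed within a factor of 1.5. Of the 130 alternative values, 19 moved and 111 were unchanged, but 73 of the latter were values of 0 that stayed at 0, which leaves 38 unchanged values above 0. Some of these 38 could not change. The 5 kb upstream of the main start of *Ppargc1a* already lay within its span. Asking for at least 10% of the span returned the same share. The share of *Ppargc1a* in WT-only DRs, 42.2%, was 27.9% with DRs of at least 20 kb and 21.9% over its exons. It was 0% with DRs of at least 50 kb and at the main start alone. When at least 50% of the span was asked for, the share stayed at 42.2% but fell short, and was counted as 0%. Its share in KO-only DRs rose from 0% to 8.39% with differences of any length, and the nearest of its other starts was 0 kb from a WT LAD. In a 200 kb window in place of 1 Mb, KO LADs covered 24.9% around *Ppargc1a* and 6.81% around *Ppargc1b*. In 2 Mb, *Ppargc1b* had 6.98% in WT and 7.72% in KO LADs, and *Pprc1* 1.36% in KO LADs. With LADs of at least 20 kb, the nearest KO LAD was 604 kb from *Ppargc1b* and 1413 kb from *Pprc1*. Counting 5 kb upstream of the start, a setting chosen after seeing the data, put 2.26% of *Ppargc1b* in a KO-only DR. The listed pathway genes called PI were 3, and 1 when DRs had to span 20 kb or more, and 0 by the start alone. Those called IP were 9, and 4 and 3 under the same settings. Over all protein-coding genes, 5.43% were PI and 17.1% IP by the span. By the start alone, these shares were 2.3% and 11.8%. With DRs of at least 20 kb the share over all genes was not computed, so those counts cannot be set against it. *Ppargc1a* lost its PI call with DRs of at least 50 kb (PP), at 50% of the span (PP), by the start alone (II) and with differences of any length (AMB). It was PI with LADs joined across gaps of up to 20 or 50 kb. The lists cannot show lamina contacts shorter than 10 kb.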
